A study of Mus musculus with 30 samples.

Results

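The first 3 days without BMP2 in the control line C2C12-pMirn0 were described from 6 of the 30 arrays of the series, 3 taken at d0 and 3 at d3. C2C12 is a mouse myoblast line, and the C2C12-pMirn0 cells were stably transduced with the parent lentiviral vector, which carries copGFP and no miR-378 insert. They are 1 transduced population, sorted for copGFP, and the arrays of a group came from triplicate experiments. The d0 cells were sub-confluent and had been kept for a day in growth medium with newborn calf serum, and the d3 cells were kept for 3 days in differentiation medium with less serum and no BMP2. Time, the lower serum and the growing density of the culture thus changed together between the groups and cannot be told apart. The other groups referred to are C2C12-pMirn0 at d6 without BMP2, C2C12-pMirn0 at d3 with 300 ng/ml BMP2, and the C2C12-pMirn378 line, which overexpresses miR-378, at d0 and at d3 without BMP2, with 3 arrays each. All probe sets with a single gene symbol were compared, 34958 of the 45101 on the array, and each of the 18194 genes was represented by its brightest such probe set.

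Withdrawal of serum from confluent myoblasts makes them leave the cell cycle, switch on the myogenic transcription factors and fuse into multinucleated myotubes. MyoD and Myf5 mark the proliferating myoblast, myogenin and the Mef2 factors follow at the onset of differentiation, and the sarcomere, the calcium stores and the acetylcholine receptors are built from their targets. Id proteins hold the myogenic bHLH factors inactive in growing cells, while cyclin-dependent kinases keep the retinoblastoma protein phosphorylated until inhibitors such as p21 accumulate.

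Expression is given as the deposited normalised intensity of a probe set, and means of intensities are arithmetic. A change is given as the log2 ratio with its standard error. This ratio is the mean log2 intensity at d3 minus that at d0, and for dim genes it can differ from the ratio of the arithmetic means. A gene was called higher or lower at an adjusted p under 0.005 with a log2 ratio beyond 0.6, where the p came from limma over all 30 arrays with Benjamini-Hochberg adjustment, and only called genes are said to have risen or fallen. Between d0 and d3, 2091 genes were higher and 2029 were lower, which is 11.5% and 11.2% of the genes tested. At the level of probe sets, 3628 were higher and 3586 lower. A fit of the 6 arrays alone, which have 4 residual degrees of freedom, called 1909 and 1955. The median log2 ratio of all genes was 0.005. The 3 d3 values lay above all 3 d0 values in 4554 genes and below them in 4543, 25.0% and 25.0% of all genes, and this held for 2088 of the called rises and 2029 of the called falls. Typical called changes were of moderate size, with a median log2 ratio of 1.15 among the rises and -1.06 among the falls. A log2 ratio beyond 3 was reached by 211 rises and 179 falls, and with values under 50 set to 50 by 142 and 136. Values this low are close to the detection limit and vary most, so called ratios that start or end there are also given with that floor. In a whole culture, a lower value can come from fewer cells of a type or from less RNA in each cell, and these cannot be told apart here.

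**Figure D1:**
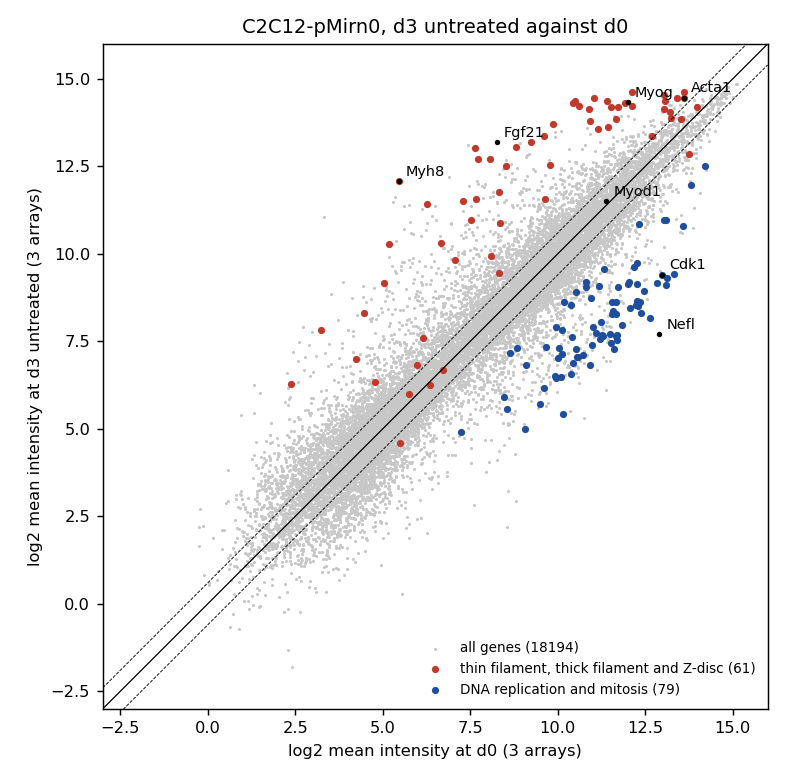
Log2 of the mean intensity of each of the 18194 genes at d0 (x axis) and at d3 without BMP2 (y axis), 3 arrays each. Dashed lines mark log2 ratios of these means of 0.6 and -0.6, which for dim genes can differ from the tested log2 ratios. The 61 genes of the thin filament, thick filament and Z-disc lists (red) lie mostly above the diagonal, and the 79 genes of the DNA replication and mitosis lists (blue) all lie below it.

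The deposited intensities had similar distributions on the 6 arrays. The median intensity was 71.7 to 82.66, and 38.74% to 42.79% of the values lay under 50. The authors had already normalised the arrays to each other, so these values do not measure array quality. Correlations on the log2 scale were taken over the brighter probe sets only, those whose level was not below the median. There, arrays of the same group correlated at 0.988 to 0.990, and arrays of different groups at 0.874 to 0.882. The dimmer probe sets, which varied more between replicates, were left out of these correlations.

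The muscle identity of the line was checked with 9 markers, of which 6 rose (Myog, Des, Ckm, Acta1, Mylpf and Tnnc2) and 3 were not called. Those 3, Myod1, Chrna1 and Cdh15, were already bright at d0. Of the markers of other lineages, the 6 endothelial and the 6 leukocyte markers gave no call by their brightest probe set, and the summed intensity per array of each list stayed between 121 and 224 at d0 and 84.6 and 163 at d3 for endothelium, and between 187 and 302 at d0 and 256 and 266 at d3 for leukocytes. The macrophage receptor gene Csf1r was at a log2 ratio of 0.51 and passed without d3 replicate 1, at 0.67, and a dimmer probe set of it was called at 0.63. Among 11 bone markers only Omd, which encodes osteomodulin, rose, at a log2 ratio of 0.75 from 46.2, 60.5 and 53.2 at d0 and 104, 80.7 and 83.5 at d3. This call was lost without d3 replicate 1, at a log2 ratio of 0.63 and an adjusted p of 0.00504. Dlx3, a homeobox factor of skeletal and ectodermal cells, fell, with a log2 ratio of -2.12. Col1a1 and Fgfr3, which the study names as bone markers but which were not on this list, rose by 2.30 and 1.75. Pdgfra, another marker that the study names, was not called at -0.19. Kazald1, also named there, was not called either, but it passed as a fall without d0 replicate 3, at -0.66, or without d3 replicate 3, at -0.63. Cartilage markers gave 1 call among 8, a fall of the transcription factor Sox9 with a log2 ratio of -1.57, and Col2a1 and Acan stayed near the detection limit.

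Of the 17 myogenic regulators measured, 9 rose and 2 fell, and their median log2 ratio was 1.05. MyoD itself (Myod1), the factor that commits cells to the muscle lineage, read 2714, 2698 and 2639 at d0 and 2947, 2777 and 2960.4 at d3. Its level thus stayed close to that of growing cells, and the log2 difference of 0.11 (SE 0.07, adjusted p = 0.312) was not called. Myogenin (Myog), the factor that drives entry into differentiation, read 4099.8, 3934 and 4236 at d0 and 21813, 19625 and 20407 at d3. All d3 arrays lay far above the d0 arrays, and the log2 ratio was 2.33 (SE 0.08, adjusted p = 1.27e-16).

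Mef2c, a MADS-box factor that acts with the bHLH proteins, read 424, 393 and 428 at d0 and 5754, 4816 and 4715 at d3. It showed the largest log2 ratio of the list at 3.61 (SE 0.11, adjusted p = 6.61e-17), while Mef2a and Mef2d rose less, at 1.56 and 1.05, and Mef2b stayed near the detection limit. The RNA-binding protein gene Rbm24 and the muscle methyltransferase gene Smyd1 rose with log2 ratios of 2.93 and 3.22. Hes6, an antagonist of Hes1, rose by 1.43 and the E protein gene Tcf4 by 1.27 on the log2 scale. Myf6, the factor of late differentiation, was dim in both groups, with 9.45, 45.9 and 20.6 at d0 and 110.3, 125 and 119.9 at d3. It was called at a log2 ratio of 2.51, which shrank to 1.24 with the floor of 50.

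Myf5, the second determination factor, moved the other way, from 3065, 3203 and 3002 at d0 to 1804, 1937 and 1817 at d3. The groups did not overlap, and it fell by 0.74 on the log2 scale (SE 0.08, adjusted p = 5.76e-08). Tcf3, which encodes the E proteins that pair with MyoD, also fell, with a log2 ratio of -1.18, whereas the related Tcf12 was not called at 0.09. Pax3 and Pax7, factors of muscle precursors, were dim and not called at log2 ratios of 0.51 and -0.40.

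Factors that hold the myogenic bHLH proteins back fell more often than they rose, with 6 lower and 2 higher of 16. Id1, Id2 and Id3, whose products bind E proteins without contacting DNA, were 3 of the 4 largest called falls of the list, while Id4, which was not on it, was dim and not called at -0.07. Id2 read 5522, 5831 and 5573 at d0 and 624, 602 and 606 at d3, and it fell by 3.21 on the log2 scale (SE 0.11, adjusted p = 2.26e-16). Id3 read 6267, 6352 and 6085 at d0 and 826, 827 and 901 at d3 and Id1 5457, 5927 and 5974 at d0 and 1121, 1230.3 and 1237 at d3. Both were separated by wide margins, with log2 ratios of -2.87 and -2.27. Twist2, Msc and Hes1, bHLH repressors of muscle genes, fell with log2 ratios of -2.65, -1.82 and -0.78. The Sox factor gene Sox8 and the zinc finger gene Zeb1 were the 2 members that rose, at 2.59, or 2.41 with the floor, and 1.14.

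**Figure D2:**
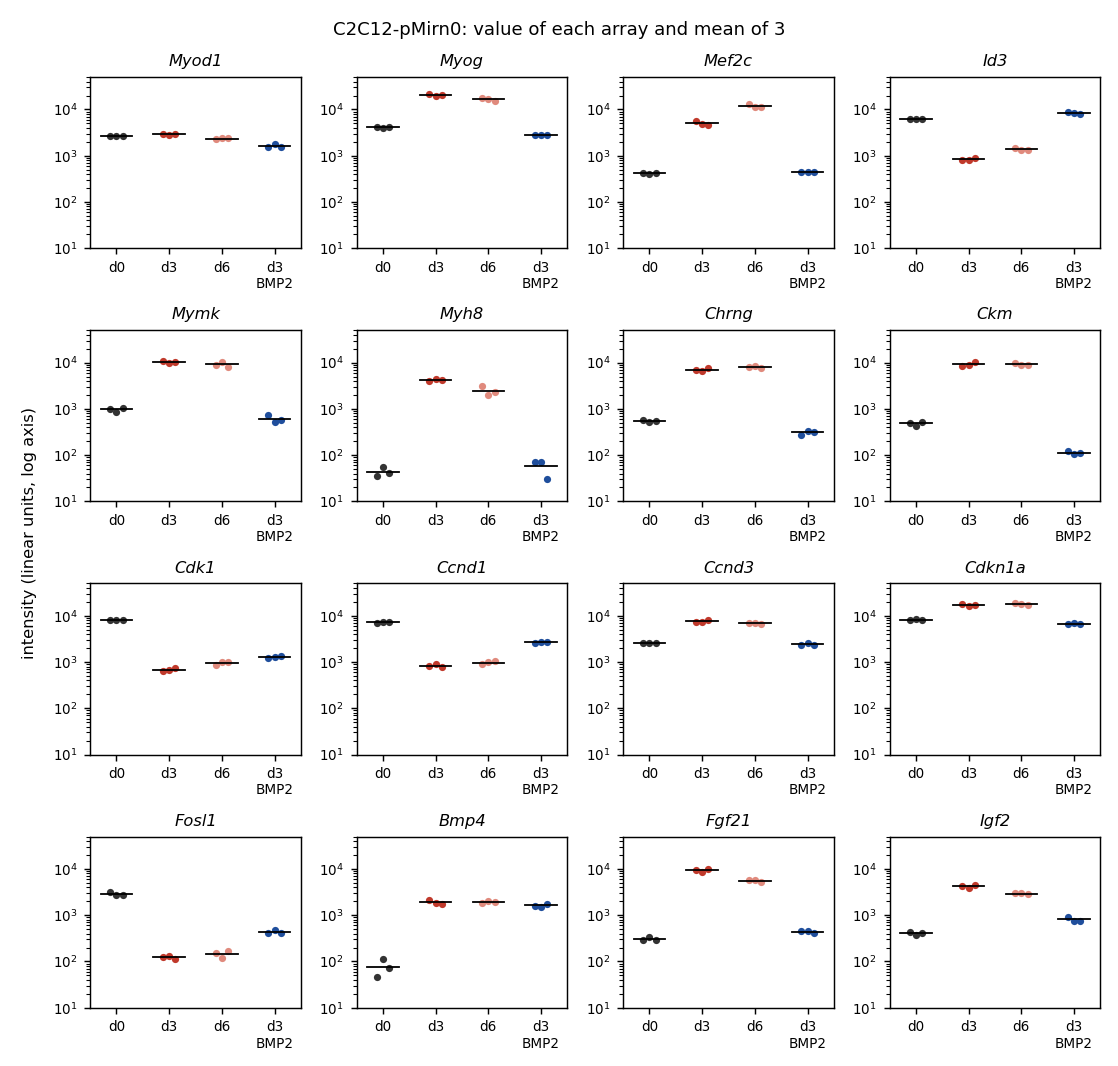
Normalised intensity (log axis) of 16 genes on each array of the control line at d0, d3 without BMP2, d6 without BMP2 and d3 with BMP2, 1 point per array and 3 arrays per group. Myod1 stayed between 2639 and 2960.4 at d0 and d3, whereas Myog, Mef2c, Mymk, Myh8 and Ckm lay higher and Id3, Cdk1, Ccnd1 and Fosl1 lower on all d3 arrays without BMP2.

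Genes of cell fusion and of the muscle membrane rose in 9 and fell in 3 of 16 cases. Mymk, the gene of the fusogen myomaker, read 1012, 847 and 1052 at d0 and 11069.7, 9673 and 10309.6 at d3. Its partner Mymx, which encodes myomixer, read 992, 901 and 1033 at d0 and 10973, 11602 and 12022 at d3. Both lay far above their d0 level on all d3 arrays, Mymk by 3.42 (SE 0.16, adjusted p = 7.02e-14) and Mymx by 3.57 (SE 0.11, adjusted p = 9.65e-17) on the log2 scale. Cav3, the muscle caveolin, and Tmem182, a muscle membrane protein, showed log2 ratios of 3.94 and 3.70, and dysferlin (Dysf) and amphiphysin 2 (Bin1), which shape and repair the muscle membrane, 2.41 and 1.67. N-cadherin (Cdh2) rose by 1.02 on the log2 scale, while M-cadherin (Cdh15) was bright in both groups and not called at 0.29. The 3 members that fell were Dock1, Kirrel and Adam12, an exchange factor, an adhesion protein and a metalloprotease with roles in early fusion, at log2 ratios of -1.03, -0.94 and -0.84.

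Most sarcomere genes rose. Of the 22 genes of the thick filament and M-band 18 rose and none fell, with a median log2 ratio of 3.33, and of the 19 genes of the Z-disc 16 rose and none fell, with a median of 2.18. The thin filament had 18 rises and 1 fall among 20 genes and a median of 2.59. These medians stand beside 0.005 for all genes.

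Myosin heavy chains are the motors of the thick filament. Perinatal myosin (Myh8) read 35.0, 55.0 and 41.4 at d0 and 4064, 4524 and 4312 at d3. It went from near the detection limit to a bright signal and had a log2 ratio of 6.64. With the floor of 50 the ratio was 6.38, the largest rise among the genes ranked on that scale. Slow myosin (Myh7) read 202, 198 and 193 at d0 and 8086, 7947 and 9040.0 at d3. Its log2 ratio was 5.40 (SE 0.14, adjusted p = 3.49e-18), from a baseline already above the floor. The fast myosin gene Myh4 rose by 5.18 on the log2 scale, and embryonic myosin (Myh3), with 3676, 3376 and 3155 at d0 and 19973, 17255 and 19521 at d3, by 2.48. Probe sets of this family can hybridise to related transcripts, and that of Myh1, at a log2 ratio of 3.42, is marked by the manufacturer as one that may cross-hybridise. The M-band proteins myomesin 1 and 3 (Myom1, Myom3) rose by 4.23 and 3.45.

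Several light chains and thin filament genes were bright before differentiation, and their ratios were small. Mylpf, the fast regulatory light chain, read 11887, 13313 and 11988 at d0 and 27111, 22416 and 26905 at d3. These d3 values lay at the upper end of the intensity scale, whose highest value on any of the 6 arrays was 27819.6 to 40201, and whether the scale compressed the log2 ratio of 1.04 was not tested. Skeletal actin (Acta1) was similar, with a log2 ratio of 0.85, while cardiac actin (Actc1) rose by 2.49. Among the troponins that make the filament calcium-sensitive, Tnni2 read 1444, 1416 and 1436 at d0 and 22114, 19888 and 21642 at d3. Its log2 ratio of 3.89 was followed by 3.62 for Tnnt3, 2.64 for Tnnc2, 2.87 for Tnnt1 and 1.51 for Tnnt2. Leiomodin 3 (Lmod3), which nucleates actin filaments, read 412, 464 and 467 at d0 and 8262, 8280.4 and 8789 at d3. It had the largest log2 ratio of the thin filament list at 4.24 (SE 0.10, adjusted p = 6.87e-19), ahead of 3.94 for nebulin (Neb).

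At the Z-disc, which anchors the thin filaments, myozenin 2 (Myoz2) read 220.3, 216 and 203 at d0 and 6301, 6951 and 6832 at d3. The log2 ratio was 4.97 (SE 0.14, adjusted p = 2.55e-17). The stretch-responsive Ankrd2, the LIM protein gene Csrp3 and the small muscle protein gene Smpx rose by 4.65, 4.00 and 3.77 on the log2 scale, and Myot, which encodes myotilin, by 5.35 from values under 50, or 2.19 with the floor. Desmin (Des), the intermediate filament of muscle, was bright throughout and rose by only 0.65. Vinculin (Vcl) and Ankrd1 were bright and not called, at 0.32 and 0.22.

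Promoter windows of 250 bases before to 50 bases after the transcription start, taken from RefSeq on GRCm38.p6, were searched on both strands for CAGCTG, the E-box form that MyoD and myogenin bind. Of all 32851 windows 16.3% held it, against 9 of 19 windows of thin filament genes (47.4%), 9 of 22 of thick filament genes (40.9%) and 5 of 13 of the acetylcholine receptor and synapse genes (38.5%). The looser form CANNTG, which includes CAGCTG, was in 72.3% of all windows. It was in 18 of 19 thin filament windows (94.7%), 19 of 22 thick filament windows (86.4%) and 10 of 13 receptor and synapse windows (76.9%). The Mef2 site CTAAAAATA was in 0.518% of all windows and in none of these lists. A gene with several starts has several windows, which may overlap. The windows of Chrng, chr1:87205561-87205860 on the plus strand, and of Mylpf, chr7:127211358-127211657 on the plus strand, are shown. They were picked because the receptor gene rose from a far lower level than the light chain. Capitals mark CAGCTG, which reads the same on both strands.
Chrng: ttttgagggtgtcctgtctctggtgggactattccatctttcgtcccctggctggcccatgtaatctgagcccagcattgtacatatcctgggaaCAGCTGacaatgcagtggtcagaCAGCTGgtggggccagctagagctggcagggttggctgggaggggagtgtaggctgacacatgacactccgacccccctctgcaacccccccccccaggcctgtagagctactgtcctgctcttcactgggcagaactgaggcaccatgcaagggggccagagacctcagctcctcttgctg
Mylpf: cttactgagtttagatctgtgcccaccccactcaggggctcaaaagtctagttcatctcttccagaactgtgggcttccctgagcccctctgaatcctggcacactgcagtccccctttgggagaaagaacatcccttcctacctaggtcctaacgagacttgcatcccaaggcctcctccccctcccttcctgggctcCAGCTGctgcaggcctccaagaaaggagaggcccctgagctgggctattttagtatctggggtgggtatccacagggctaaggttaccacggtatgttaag
A match is a run of letters in the window and was not tested for binding.

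Genes that couple the nerve signal to contraction rose alongside. In the list for excitation and calcium handling 17 of 21 rose and none fell, with a median log2 ratio of 2.79. Calsequestrin 1 (Casq1), the calcium buffer of the reticulum, read 102, 92.3 and 76.3 at d0 and 2590.4, 2448 and 2825 at d3. The ratio was 4.87 (SE 0.11, adjusted p = 6.87e-19). The fast calcium pump (Atp2a1) read 387, 336 and 318 at d0 and 6015, 5045 and 5333 at d3, and the release channel (Ryr1) 464, 360.1 and 419.8 at d0 and 4731, 4428 and 4282 at d3. Their log2 ratios were 3.98 and 3.44, and those of triadin (Trdn), the calcium channel subunits Cacna1s and Cacnb1 and their adaptor Stac3 lay between 3.51 and 4.46. The chloride channel Clcn1 and sarcolipin (Sln) stayed under 50 on all 6 arrays.

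Of 16 genes of the acetylcholine receptor and the synapse 11 rose, with a median of 1.18. The fetal receptor subunit gene Chrng read 563, 523 and 560.4 at d0 and 6953, 6517 and 7519.8 at d3. It rose by 3.67 (SE 0.14, adjusted p = 1.50e-15), while the adult subunit Chrne read 9.15, 41.3 and 7.12 at d0 and 32.6, 60.0 and 48.1 at d3 and was not called, except without d0 replicate 2, at a log2 ratio of 2.49. The alpha subunit (Chrna1) was bright in both groups and not called at 0.36. The clustering proteins Musk, Rapsn, Dok7 and Lrp4 rose by 1.23, 1.13, 1.04 and 1.86, and the neuregulin receptor Erbb3 by 3.14. In the dystrophin complex, which ties the cytoskeleton to the matrix, 8 of 11 rose, led by the syntrophin Sntb1 at 3.19 and alpha-sarcoglycan (Sgca) at 2.68. Dystrophin itself (Dmd) was dim, with 5.58, 22.9 and 28.3 at d0 and 64.3, 74.1 and 52.97 at d3, and its log2 ratio of 2.04 (adjusted p = 0.00545) was not called, although it passed without d0 replicate 3, at 2.48, and with the replicate block, at an adjusted p of 0.00469.

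**Figure D3:**
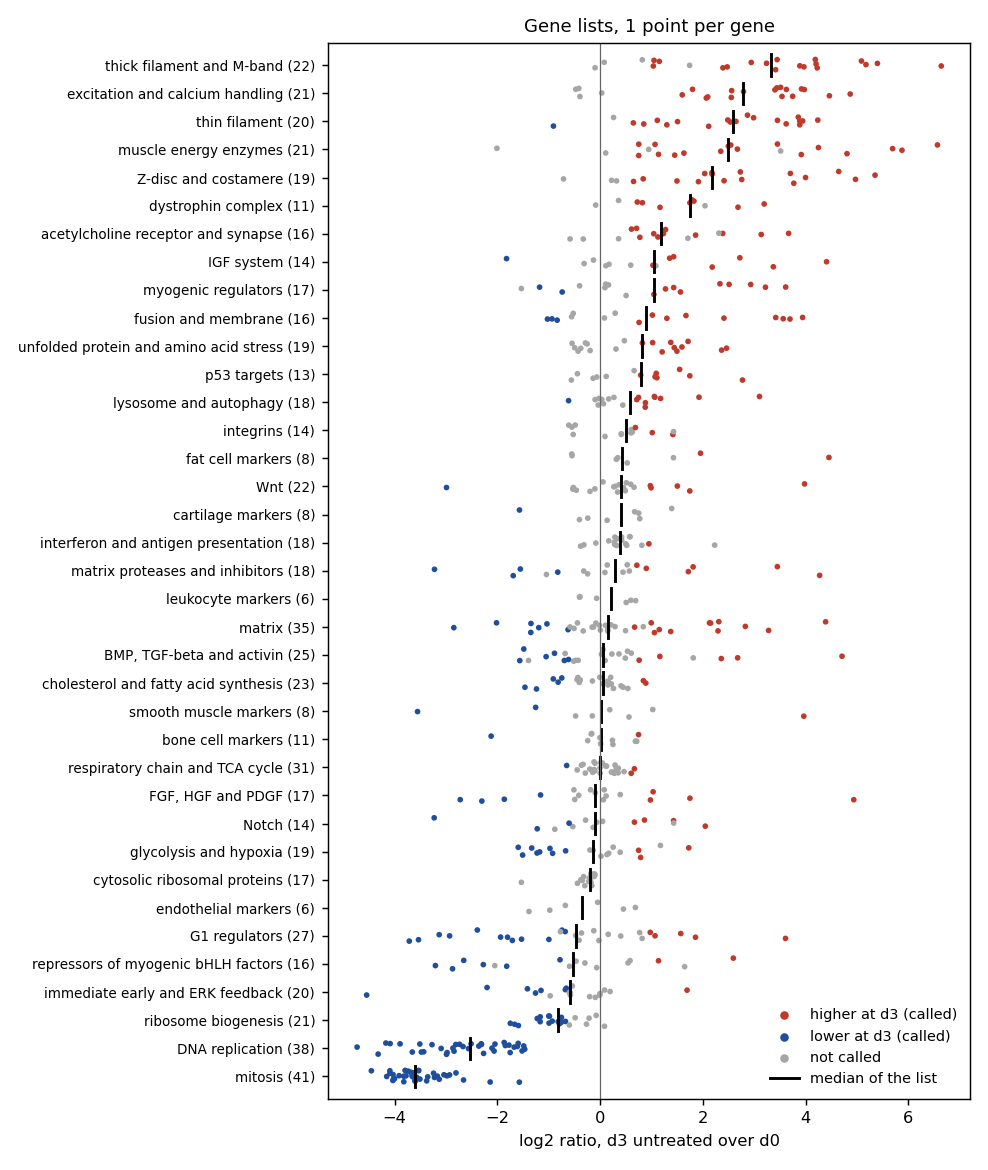
Log2 ratio of d3 without BMP2 over d0 for each measured gene of the 37 lists, 1 point per gene, ordered by list median (black bar), with called rises in red, called falls in blue and genes not called in grey. Contractile, calcium and muscle energy lists lie at the top with medians from 2.18 to 3.33, and DNA replication and mitosis lie at the bottom with medians of -2.54 and -3.61.

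Muscle forms of energy enzymes rose in 17 of 21 cases with no fall, at a median log2 ratio of 2.50. Muscle creatine kinase (Ckm), which buffers ATP in the sarcomere, read 491, 432 and 528 at d0 and 8427, 8781 and 10452 at d3. The ratio was 4.25 (SE 0.17, adjusted p = 3.03e-15). Cox6a2, the muscle form of a cytochrome oxidase subunit, read 166, 154 and 198 at d0 and 8675, 9032 and 9000.0 at d3. It rose by 5.70 (SE 0.17, adjusted p = 3.90e-17), a 51.8-fold difference of the geometric means. Muscle phosphoglycerate mutase (Pgam2) rose by 5.88, or 5.41 with the floor, and muscle glycogen phosphorylase (Pygm) by 4.81, or 4.21. Myoglobin (Mb) and the heart and muscle fatty acid binding protein (Fabp3) rose by 2.67 and 3.45.

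The general enzymes of glycolysis went the other way more often, with 8 lower and 3 higher of 19 in the list for glycolysis and hypoxia. The general phosphoglycerate mutase (Pgam1) read 10199.6, 11356 and 10287 at d0 and 3647, 3720.2 and 3810.4 at d3, and it fell by 1.51 on the log2 scale (SE 0.06, adjusted p = 5.80e-15). Pyruvate kinase (Pkm), lactate dehydrogenase (Ldha) and the glucose transporter GLUT1 (Slc2a1) fell with log2 ratios of -1.23, -0.98 and -1.33. Gapdh was not called at -0.20. The respiratory chain and the TCA cycle stayed near their d0 level, with 2 rises, 1 fall and a median of 0.007 in 31 genes. The rises were complex I subunits, Ndufs3 at 0.67 and Ndufv1 at 0.61, and the fall was isocitrate dehydrogenase 3 alpha (Idh3a) at -0.65. The call of Ndufv1 was lost without d0 replicate 2 or d3 replicate 3, at a log2 ratio of 0.52 to 0.59.

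Pairs of a general and a muscle form of the same protein, chosen after their values were seen, show both forms of 1 function. In all 11 pairs the muscle form rose. The general form fell in 6 pairs (Pgam1, Pfkl, Pygb, Hk1, Slc2a1 and Actn1), was not called in 4 (Cox6a1, Cox7a2, Cox8a and Atp2a2) and rose in 1 (Ckb), each by its brightest probe set. For phosphofructokinase, the liver form Pfkl went from a mean of 836.7 to 370.5 and the muscle form Pfkm from 742 to 4327. For the calcium pump, Atp2a1 went from 347 to 5464, and the probe sets of Atp2a2 differed. The brightest went from 7781 to 5838 without a call, and another 2 were called higher, from 2139 to 11510 and from 834 to 5773, with log2 ratios of 2.43 and 2.80. The count for the general forms thus depends on the probe set in the case of Atp2a2. Brain creatine kinase (Ckb) rose with the muscle form, from 1895 to 4192.

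**Figure D4:**
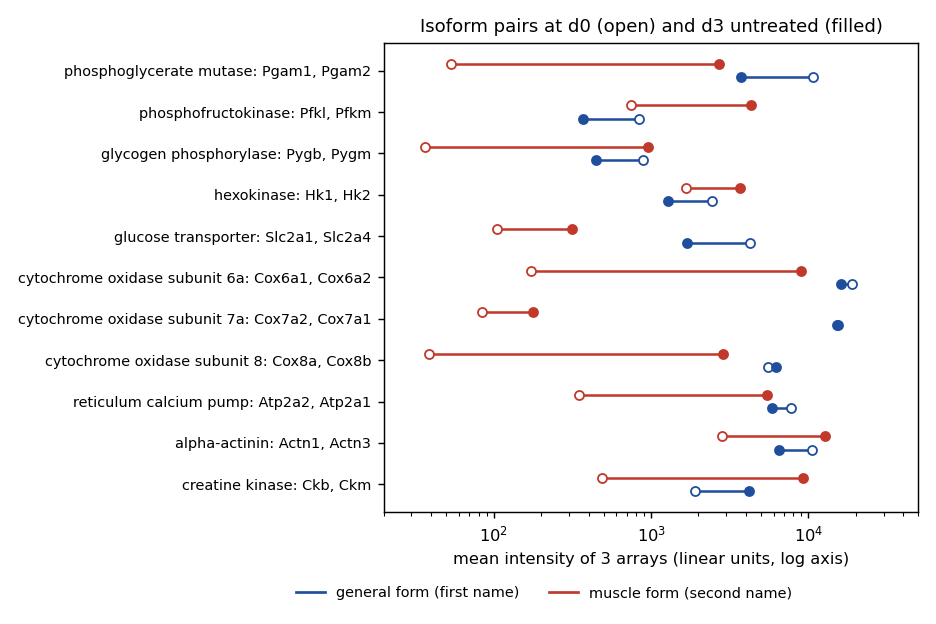
Mean intensity (log axis, 3 arrays each) at d0 (open) and d3 without BMP2 (filled) of 11 pairs of a general and a muscle form of the same protein. Each gene is drawn by its brightest probe set, and other probe sets of Atp2a2 were called higher. Each muscle form moves to the right, while the general form moves left in 6 pairs and stays within the calling limit in 4.

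Different probe sets of a gene can read different transcript ends or splice forms, and in 37 genes they were called in opposite directions, with intensities of at least 500 on both sides in 14. Among these were the tropomyosins, which lie along the actin filament and are spliced into muscle and non-muscle forms. Of Tpm3, the probe set 1427260_a_at read 12320.4, 15649.5 and 13861 at d0 and 7439, 7202 and 7541 at d3. The probe set 1449997_at read 174, 195 and 237 at d0 and 2572, 2703 and 2947 at d3. The first fell with a log2 ratio of -0.91 and the second rose with 3.77, and since the first is brighter, Tpm3 counted as the only fall of the thin filament list. Of Tpm1, 1423049_a_at rose with 1.11 and 1447713_at with 3.27, while 1423721_at fell with -0.78. The Z-disc proteins Pdlim5 and Pdlim7 were split in the same manner, for Pdlim5 between 2.32 (1429783_at) and -1.26 (1450786_x_at) and for Pdlim7 between 0.96 and -1.40. Which exons these probe sets cover was not analysed here. Over all 2487 called genes with several probe sets, all probe sets were called in the same direction in 810, and 29 had a probe set called the other way.

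The lists of mitosis and DNA replication fell without exception. All 41 genes of mitosis and all 38 genes of DNA replication were lower at d3, with median log2 ratios of -3.61 and -2.54. Cdk1, the kinase that starts mitosis, read 7952, 8182 and 8039 at d0 and 628, 667 and 735 at d3. It fell by 3.58 on the log2 scale (SE 0.09, adjusted p = 2.27e-18), a 11.9-fold difference. Survivin (Birc5), a subunit of the chromosomal passenger complex, read 6129.7, 6632 and 6197 at d0 and 264, 299.5 and 302 at d3. It fell by 4.45 on the log2 scale (SE 0.11, adjusted p = 1.80e-18), the largest change of the mitosis list. Aurora A (Aurka), the ubiquitin-conjugating enzyme Ube2c and the kinesin Kif23 had log2 ratios of -4.09, -4.03 and -4.16, and the smallest fall of the list was that of the phosphatase gene Cdc25b at -1.57.

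Cdc6, which loads the replicative helicase, read 1135, 1128 and 1170.3 at d0 and 39.4, 45.9 and 44.1 at d3. It fell by 4.73 on the log2 scale (SE 0.15, adjusted p = 9.79e-17), or by 4.52 with the floor of 50. Thymidine kinase (Tk1), which salvages thymidine in S phase, read 3071, 3106 and 3147 at d0 and 142, 149 and 177 at d3. It fell by 4.32 on the log2 scale (SE 0.12, adjusted p = 2.42e-17). The helicase subunits Mcm2 to Mcm7 fell with log2 ratios between -4.09 and -2.06. The falls were smaller for ribonucleotide reductase, with -1.47 for Rrm1 and -1.67 for Rrm2, and for Pcna, the sliding clamp, with -1.85. These transcripts were still bright at d3, where Rrm2 read 5469, 6078 and 6049 and Pcna 3998, 3631 and 4517.

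Windows of 35 mitosis promoters held CCAAT in 27 (77.1%) and TTTGAA in 27 (77.1%), while the same were in 37.4% and 17.9% of all windows. For 39 windows of replication genes the numbers were 22 (56.4%) for CCAAT and 5 for TTTGAA. TTTGGCGC or TTTCCCGC, forms bound by E2F factors, were in 12 of the 39 (30.8%), in 2 of the 35 and in 1.57% of all windows. The windows of Cdk1, chr10:69352863-69353162 on the minus strand, and Mcm6, chr1:128359656-128359955 on the minus strand, are printed as members of the mitosis and the replication list, and each is given on its gene's strand. Capitals mark CCAAT, read in these windows as its reverse complement ATTGG, in both of them. In Cdk1 they also mark TTTGAA, and in Mcm6 TTTGGCGC. TTCGAA in Cdk1 and TTTCCCGC in Mcm6 were searched as well, on either strand, and were not found.
Cdk1: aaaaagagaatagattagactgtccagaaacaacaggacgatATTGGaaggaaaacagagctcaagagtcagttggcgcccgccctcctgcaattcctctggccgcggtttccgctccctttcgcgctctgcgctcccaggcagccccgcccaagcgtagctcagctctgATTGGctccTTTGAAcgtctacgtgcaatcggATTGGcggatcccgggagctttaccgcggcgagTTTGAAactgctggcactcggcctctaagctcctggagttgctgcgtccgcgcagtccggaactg
Mcm6: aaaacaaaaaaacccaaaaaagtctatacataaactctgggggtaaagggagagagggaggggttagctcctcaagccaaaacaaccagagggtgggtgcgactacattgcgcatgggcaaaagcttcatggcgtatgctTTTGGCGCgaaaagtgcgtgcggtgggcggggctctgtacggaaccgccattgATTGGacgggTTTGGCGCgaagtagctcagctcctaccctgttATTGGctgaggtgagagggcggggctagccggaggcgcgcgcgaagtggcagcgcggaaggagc
Mcm6, a subunit of the replicative helicase, read 4843, 4676 and 4530.2 at d0 and 751, 849 and 782 at d3, with a log2 ratio of -2.56.

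Regulators of the G1 phase were split, with 5 higher and 12 lower of 27. Cyclin D1 (Ccnd1), the mitogen-induced partner of Cdk4 and Cdk6, read 7032, 7531 and 7516 at d0 and 841, 888 and 789 at d3. It fell by 3.13 on the log2 scale (SE 0.08, adjusted p = 1.80e-18). Cyclin D3 (Ccnd3) moved the opposite way, with 2605, 2577 and 2553 at d0 and 7499.6, 7430.1 and 8051 at d3. Its log2 ratio was 1.57 (SE 0.05, adjusted p = 2.17e-16), and that of cyclin D2 (Ccnd2) was -0.12 without a call. The inhibitor p21 (Cdkn1a) read 8017, 8337 and 8044 at d0 and 17652, 16214 and 17369 at d3, so that it rose by 1.07 (SE 0.08, adjusted p = 1.56e-10) from a bright baseline. The inhibitors p57 (Cdkn1c) and p27 (Cdkn1b) rose by 3.61, or 3.22 with the floor, and 0.98, and the retinoblastoma gene Rb1 by 1.86, while its relative Rbl1 fell with -2.39. The cyclins Ccne1 and Ccne2, which open S phase, fell with -2.93 and -3.72, E2f1 with -1.94 and Myc with -1.53.

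Targets of p53 were higher in 7 of 13 cases and lower in none, at a median of 0.79. Gadd45a, a stress-induced growth arrest gene, read 1720.3, 1694 and 2062 at d0 and 12737, 11563 and 13000.3 at d3. It rose by 2.77 (SE 0.10, adjusted p = 4.14e-16) and the BH3-only gene Pmaip1 by 1.75, whereas Mdm2, the feedback inhibitor of p53, was not called at -0.14.

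Ribosome biogenesis fell in 15 of 21 genes with no rise, at a median of -0.82. Dyskerin (Dkc1), which modifies ribosomal RNA, read 5060.1, 5218 and 4987 at d0 and 1500.0, 1521 and 1521 at d3. It fell by 1.75 on the log2 scale (SE 0.06, adjusted p = 1.21e-15). The nucleolar proteins Nop56, Nolc1 and fibrillarin (Fbl) fell with log2 ratios of -1.66, -1.59 and -1.17. None of the 17 cytosolic ribosomal proteins was called, and their median was -0.20, although most lay at the upper end of the scale.

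Among 20 immediate early genes and feedback regulators of ERK signalling 7 fell and 1 rose. Fosl1, an AP-1 subunit induced by growth factors, read 3204, 2718 and 2751 at d0 and 124, 134 and 113 at d3. It fell by 4.55 on the log2 scale (SE 0.13, adjusted p = 2.05e-17), one of the 15 largest falls ranked with the floor. The ERK phosphatases Dusp4 and Dusp6 fell with -2.20 and -1.15, and Egr1 with -0.66, a call that was lost without d3 replicate 2, at -0.58. Fos, Junb and Jund were not called at -0.54, -0.20 and 0.00, and Fos passed only without d3 replicate 1, at -0.60. Atf3, a stress-induced factor, was the only member that rose, from 269, 325 and 289 to 974, 876 and 998, a log2 ratio of 1.69.

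The list for the unfolded protein response and amino acid stress gave calls in 1 direction. Of 19 genes 10 rose and none fell. Trib3, a pseudokinase induced by ATF4 and CHOP, read 286, 342 and 444 at d0 and 1804, 2031 and 1981 at d3. Herpud1, a component of protein degradation at the reticulum, read 1205, 1011 and 1052 at d0 and 5299.9, 5508 and 6012 at d3. They rose by 2.46 and 2.37 on the log2 scale, together with CHOP (Ddit3) at 1.59, Atf5 at 1.71, the transporter gene Slc7a5 at 1.44 and asparagine synthetase (Asns) at 1.02. The chaperone BiP (Hspa5) read 13602, 15708 and 14174 at d0 and 10806, 10854 and 10587 at d3. With a log2 ratio of -0.43 it was not called, nor were Hsp90b1, Calr and Xbp1 at -0.29, -0.19 and -0.55. Lysosome and autophagy genes rose in 9 and fell in 1 of 18 cases, with Map1lc3a, an autophagosome protein, at 1.93 and Lamp2 at 1.07. The fall was alpha-galactosidase (Gla) at -0.61, and its call was lost without d0 replicate 1 or d0 replicate 3 or d3 replicate 1 or d3 replicate 3, at log2 ratios of -0.56 to -0.62.

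Lipid genes were split. In cholesterol and fatty acid synthesis 5 of 23 fell, among them fatty acid synthase (Fasn) at -1.24 and the elongase Elovl6 at -1.46, and 2 rose, the desaturase Scd1 at 0.89 and Dhcr7, an enzyme of cholesterol synthesis, at 0.84. Cd36, a fatty acid transporter shared by fat and muscle cells, read 73.8, 71.5 and 80.6 at d0 and 1738, 1679 and 1539.9 at d3. It rose by 4.46 (SE 0.13, adjusted p = 2.82e-17) and lipoprotein lipase (Lpl) by 1.95, the 2 calls among 8 fat cell markers, while Adipoq, Fabp4 and Pparg were not called. Of the 18 genes of the interferon response and antigen presentation, Bst2 alone was called, at 0.95, and this call was lost without d0 replicate 1 or d0 replicate 3 or d3 replicate 2, at log2 ratios of 0.87 to 0.89. B2m, the light chain of class I molecules, was just below the limit at 0.58 and passed with quantile normalisation, at 0.62, and without d0 replicate 1, d0 replicate 2 or d3 replicate 3, at 0.61 to 0.64. In smooth muscle markers, Lmod1 rose by 3.97 from values under 50, or 1.04 with the floor, and Tagln and Cnn1 fell with -1.25 and -3.55, the latter -2.93 with the floor. The brightest probe set of Acta2, at the upper end of the scale, was not called at -0.15, and its other 2 probe sets were called higher, from 302 to 977 and from 67.6 to 255, at 1.69 and 1.94.

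Genes of the extracellular matrix changed in both directions, with 12 of 35 higher, 7 lower and a median log2 ratio of 0.15. Decorin (Dcn), a small proteoglycan that binds collagen and TGF-beta, read 182, 248 and 195 at d0 and 4325, 4327 and 4349 at d3. It rose by 4.39 (SE 0.11, adjusted p = 1.80e-18), a 21.0-fold difference, and osteoglycin (Ogn) by 2.15. Tenascin C (Tnc), a matrix protein of growing and injured tissue, read 8222, 8495 and 8459.8 at d0 and 1146, 1116 and 1237 at d3. It fell by 2.85 on the log2 scale (SE 0.07, adjusted p = 3.15e-18). The 3 chains of collagen VI, which assemble in equal numbers, did not move together. Col6a1 read 309, 281 and 349.5 at d0 and 2226, 2139.9 and 2277 at d3 and Col6a2 146, 152 and 196 at d0 and 1522, 1508 and 1741 at d3, while Col6a3 read 6993, 6563 and 6737 at d0 and 2642, 2365 and 3011 at d3. The first 2 rose by 2.83 and 3.28 on the log2 scale, and Col6a3 fell by 1.35 on the log2 scale (SE 0.09, adjusted p = 3.85e-11). Likewise nidogen 2 (Nid2), a basement membrane linker, rose by 2.13 and nidogen 1 (Nid1) fell with a log2 ratio of -1.35, Col1a1 rose by 2.30 and Col1a2 was not called at 0.11. The YAP and TGF-beta target Ccn2 fell with -1.04, and Col18a1 with -2.02.

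Of 18 matrix proteases and inhibitors 6 rose and 4 fell. The urokinase receptor (Plaur), which focuses plasmin at the cell surface, read 2720.3, 2815 and 2768 at d0 and 273, 276 and 344 at d3. It fell by 3.22 on the log2 scale (SE 0.11, adjusted p = 1.66e-16), and its ligand Plau fell with -0.82. The inhibitors Timp1 and Timp3 fell with -1.69 and -1.55, whereas Timp2 was not called at 0.57 and passed only without d3 replicate 2, at 0.61. Adamts5, a protease that cleaves proteoglycans, read 199.8, 229 and 204 at d0 and 3994, 4158 and 4066 at d3. The log2 ratio was 4.27 (SE 0.15, adjusted p = 3.54e-16), and Mmp2 rose by 1.81. Of 14 integrins not counted elsewhere 3 rose, Itga4, Itga6 and Itgb5, at 1.42, 1.02 and 0.69.

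Insulin-like growth factors, which promote muscle differentiation and growth, rose. Igf2 read 427, 378 and 415 at d0 and 4373, 3819 and 4465 at d3. Igf1 read 13.3, 30.5 and 37.3 at d0 and 530.5, 533 and 514 at d3. The log2 ratio of Igf2 was 3.37 (SE 0.12, adjusted p = 8.18e-16), and that of Igf1 was 4.41, or 3.39 with the floor. Over the IGF list 7 of 14 rose, among them Igf2r at 1.43, Akt2 at 1.35 and Igfbp4 at 2.72. The binding protein gene Igfbp2 was the 1 that fell, from 17169, 21138 and 19260.2 to 5024, 5378 and 5854, a log2 ratio of -1.82.

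In the list for BMP, TGF-beta and activin 5 of 25 rose and 6 fell. Bmp4, a ligand of the same receptors as the added BMP2 of the other cultures, read 45.9, 114 and 72.6 at d0 and 2088, 1849 and 1767 at d3. All d3 arrays were well above the d0 arrays and the log2 ratio was 4.71 (SE 0.23, adjusted p = 1.16e-13). Bmp2 itself stayed under 50 on all 6 arrays. Tgfb3 rose by 2.68 and follistatin (Fst), a secreted antagonist of activin and myostatin, by 2.36. The intracellular inhibitors Smad6 and Smad7, which BMP and TGF-beta induce, fell with -0.89 and -1.56, the antagonist gremlin (Grem1) with -1.49 and the receptor Acvr1 with -0.70. Bmp4 thus rose in the cultures in which Id1, Id2, Id3, Smad6 and Smad7 fell.

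Growth factor genes of the FGF, HGF, EGF and PDGF families gave 4 rises and 4 falls among 17. Fgf21, a secreted hormone of metabolic stress, read 292, 331 and 293 at d0 and 9304, 8693 and 10099.7 at d3. It rose by 4.94 (SE 0.11, adjusted p = 9.67e-19), one of the 15 largest rises ranked with the floor. The EGF receptor ligands Hbegf and Ereg fell with -2.30 and -2.72, and the HGF receptor Met with -1.87. In the Wnt list 5 of 22 rose, including Wnt9a at 1.75 and the receptor Fzd5 at 1.50, and Dkk2, a secreted modulator, fell with -2.99, or -2.69 with the floor. Notch genes were divided into 4 rises and 3 falls of 14. The ligand Dll1 rose by 1.43 and the ligand Jag2 fell with -1.22, and the glycosyltransferase Lfng, which tunes the receptor, fell with -3.23, or -1.87 with the floor.

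Genes outside the lists also stood among the 15 largest changes in each direction, ranked with the floor of 50. Dhrs7c, an enzyme of the sarcoplasmic reticulum, read 7.34, 13.0 and 9.54 at d0 and 1941, 2054 and 2341 at d3, and Prkag3, a muscle subunit of AMP-activated kinase, 109, 149.7 and 100.1 at d0 and 4632, 4610.4 and 4927 at d3. Their log2 ratios were 7.76 and 5.33, and that of Dhrs7c was 5.40 with the floor. Tm6sf1, a multipass membrane protein, and Pgm5, a phosphoglucomutase relative at adhesion sites, rose by 6.32 and 5.29, or 5.99 and 5.12 with the floor. On the other side stood the neurofilament genes Nefm, with 2656, 2756 and 2587 at d0 and 75.7, 60.1 and 70.6 at d3, and Nefl, with 7546, 7829 and 7652 at d0 and 216, 162 and 246 at d3. Their log2 ratios of -5.28 and -5.23 were the largest falls on the scale with the floor. Serpinb2, an inhibitor of plasminogen activators, fell with -5.68, or -4.97 with the floor, and the other ranked falls besides Fosl1 were genes of replication and mitosis, such as Cdca5, Fbxo5, Dscc1 and Melk.

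The d3 levels were set beside those of d6 without BMP2 and of d3 with BMP2. Both comparisons use the same d3 arrays as the one above, so the values are given side by side. From d3 to d6, 278 genes were higher and 177 lower, 1.53% and 0.973% of all genes, far fewer than from d0 to d3. At d6 Myog read 17328, 17079 and 15532, Mymk 9105, 10099 and 8226 and Myh8 3145, 2039 and 2308. Each remained above its d0 values, and none of the 3 was called between d3 and d6. Cdk1 read 877, 988 and 1009.5 at d6, also not called. Mef2c was still higher at d6 than at d3, at a log2 ratio of 1.20, and Id2 and Id3 regained part of their level at 1.29 and 0.68. Of the immediate early list, 7 members were higher at d6 than at d3, and of the matrix list 9. None of the 41 mitosis genes was lower at d6 than at d3, and 3 were higher.

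Without BMP2, 1529 genes were higher at d3 than in the cultures with BMP2 and 2023 lower, 8.40% and 11.1% of all genes. The sarcomere lists were higher without BMP2 in 18 of 20 thin filament, 17 of 22 thick filament and 16 of 19 Z-disc genes, with none lower. With BMP2, Myog read 2809.8, 2831 and 2738, Mymk 723, 528 and 566 and Myh8 72.3, 70.5 and 30.5, all below the cultures without it. A smaller share of the cell cycle lists was called. With BMP2, Cdk1 read 1212, 1278 and 1359, so that the d3 level without BMP2 was lower by a log2 ratio of -0.92. Of the mitosis list 17 of 41 and of the replication list 19 of 38 were lower without BMP2 than with it, and none was higher. Ribosome biogenesis gave 2 higher and 1 lower of 21. Bmp4 read 1622, 1532 and 1768 with BMP2 and did not differ by the test, at a log2 ratio of 0.21 (SE 0.23). Id3 read 8625, 8202 and 7788 with BMP2, a log2 ratio of -3.27 for the cultures without it, and Smad6 was lower without BMP2 by a log2 ratio of -5.03.

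The change from d0 to d3 was measured a second time, on 6 arrays of its own, in the C2C12-pMirn378 line. There 2267 genes were higher and 2005 lower, 12.5% and 11.0%. Of the 2091 genes that rose in the control line 1737 (83.1%) were also called higher, and of the 2029 that fell 1671 (82.4%) were also called lower, with 2 and 1 called in the opposite direction. Across genes, which are not independent replicates, Pearson's r of the log2 ratios was 0.741 over all genes and 0.962 over the 9097 genes at or above the median level. The difference between the lines in this change was tested as an interaction in the same fit. It was called for 96 genes, with a larger log2 ratio in C2C12-pMirn378 in 71 and a smaller one in 25, 0.390% and 0.137% of all genes. With values under 50 set to 50 the counts were 112 and 61, and 88 of the 96 genes were called again in the same direction. Slc26a7, an anion transporter, was called in the opposite direction, with a difference of 2.00 that became -0.76 with the floor.

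Mitosis genes made up 12 of the 71 genes, and there the control line fell further. Cdk1 had log2 ratios of -3.58 in the control line and -2.99 in C2C12-pMirn378, and its difference of 0.58 was not called, at an adjusted p of 0.0177. In cholesterol and fatty acid synthesis 6 of 23 genes had a larger log2 ratio in C2C12-pMirn378 and none a smaller one. In the matrix list 2 of 35 had a larger and 5 a smaller one. The thin filament, thick filament, Z-disc and muscle energy lists gave no called difference. In the dystrophin complex 1 of 11 genes did, Sgca, which rose by 2.68 in the control line and by 1.88 in C2C12-pMirn378. Myog had 2.33 and 2.55, and Mymk 3.42 and 3.60. Id3 fell further in C2C12-pMirn378, with -4.25 against -2.87, a called difference of -1.38 (SE 0.10, adjusted p = 7.18e-08). Periostin (Postn), a secreted matrix protein, rose in the control line from 252, 194 and 223 to 1123, 1040.1 and 1139.8. In C2C12-pMirn378 it read 829, 834 and 718 at d0 and 548, 564 and 670.1 at d3, where it was not called.

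**Figure D5:**
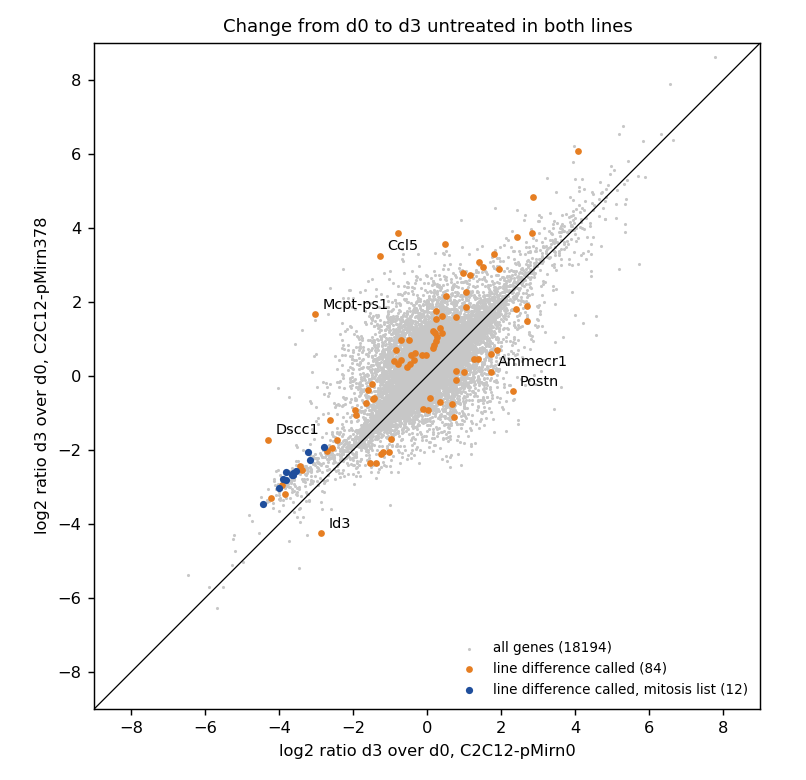
Log2 ratio of d3 without BMP2 over d0 in the control line (x axis) and in the C2C12-pMirn378 line (y axis) for each gene, 3 arrays per group and line. Most genes lie along the diagonal, and the 96 genes with a called difference between the lines are marked, 12 of them from the mitosis list (blue).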

How the data were processed

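Total RNA of 30 cultures was measured on 1-colour oligonucleotide arrays, 3 per group. The authors normalised the arrays with RMA and the quantile method, with R version 2.4.1 in the submitters' processing notes, and deposited linear intensities, so scanner values, background and scan dates were not used here and arrays could not be tested as batches; the number of arrays limits the precision. The deposited intensities were taken to log2 without an offset. All 10 groups entered 1 limma fit (limma 3.58.1, R 4.3.3) with contrasts and eBayes, and p-values were adjusted by Benjamini-Hochberg over 45101 probe sets. Thresholds were an adjusted p of 0.005 and a log2 ratio of 0.6, after the limits in the methods of the study, which applied them to q values. Symbols came from the platform annotation, where 34958 probe sets had 1 symbol, 932 had several and 9211 had none. Scripts were tested on simulated data.

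The members and the 37 gene lists, of 739 genes with 689 measured, were chosen with earlier results of these data known. Genes were named by a rule: the 15 largest changes in each direction with values under 50 set to 50 and no overlap of the arrays, leaving out probe sets ending in _x_at or _s_at, all myogenic regulators, 4 genes of every other list by smallest p and those called against their list, the 5 largest line differences each way, and genes that the study names. The rule gave 233 genes, of which at least 152 are in the text, and 91 others, chosen after their values were seen, were added by hand. Alternatives were an array left out, the 6 arrays alone, a replicate block, a floor of 50, dim probe sets left out, quantile normalisation, median scaling, trend and robust estimation, and another threshold. Per the methods the 3 arrays of a group came from triplicate experiments, and p-values measure the spread between these, which may be partly technical.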

Additional observations from a re-analysis of the deposited data

Results flagged for a closer look

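The change from d0 to d3 without BMP2 differed between the control line and C2C12-pMirn378, by the interaction test of limma, in 71 genes with a larger and 25 genes with a smaller log2 ratio in C2C12-pMirn378. Of these 96 genes the control line had 27 called rises, 41 called falls and 28 without a call, and 3 genes were called in opposite directions in the lines. The 5 differences furthest below 0 were those of Postn (-2.73), H3f3b (-1.83), Ammecr1 (-1.60), Piezo2 (-1.44) and Id3 (-1.38). On the other side, the differences of Mcpt-ps1 (4.70), 1700022A22Rik (4.63) and Ccl5 (4.52) became 0 with values under 50 set to 50, that of Ranbp3l (3.10) became 0.81 and was no longer called, and that of Dscc1 (2.58), a subunit of a clamp loader in replication, came from a deeper fall in the control line. Calls of H3f3b and Piezo2 in the control line itself were lost when 1 array was left out, for H3f3b without d0 replicate 1 or 2 or d3 replicate 1 or 3 at log2 ratios of 0.59 to 0.77 and for Piezo2 without d0 replicate 2 or any of the d3 replicates at 0.52 to 0.73. The lines are 1 transduced population each, so the insert and other differences between the populations cannot be told apart.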

How the results depend on the processing

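Precision was lowest for dim probe sets, with a median SD of 0.633 on the log2 scale at d0 below the median level against 0.120 at or above it. Over the alternatives, the counts of probe sets called between d0 and d3 moved by over 1.5 times in 2 settings. Against 3628 higher and 3586 lower, the 6 arrays alone gave 1909 and 1955, and an adjusted p under 0.05 with no minimum ratio gave 6563 and 6765. Leaving out an array gave 3370 to 3478 higher and 3360 to 3505 lower, with 6536 to 6581 of the 7214 calls shared. Of the calls, 3769 were shared with the fit of 6 arrays and 7045 with quantile normalisation. The line differences, 71 and 25, were 112 and 61 with values under 50 set to 50, and that of Slc26a7 turned from 2.00 to -0.76. The 384 called list members were 310 with the 6 arrays, 375 to 383 with an array left out and 332 when the median over probe sets stood for a gene. Some list medians depended on the floor of 50. With it, that of muscle energy enzymes went from 2.50 to 1.63, of the thick filament from 3.33 to 2.80 and of the dystrophin complex from 1.75 to 1.17. Those of calcium handling and the Z-disc stayed at 2.79 and 2.18. For 324 genes, those given by the naming rule or named in the text, the log2 ratios were recomputed with the 6 arrays, quantile normalisation, the replicate block, the floor of 50 and each array left out. None that was called changed sign, and 38 of 252 lost their call in at least 1 of these settings. All 38 lost it with the 6 arrays, among them Acta1, Acvr1, Adam12, Bst2, Ckb, Des, Dhcr7, Dll1, Dlx3, Egr1, Gla, Hes1, Idh3a, Itga4, Itga6, Itgb5, Jag2, Lfng, Musk, Myf6, Myot, Ndufs3, Ndufv1, Omd, Pygb, Smad6, Tcf3 and Tpm3. Quantile normalisation ended 3 calls (Col8a1, Ndufv1 and Notch2) and the floor 1 (Mcpt-ps1).

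The deviations of same-numbered d0 and d3 arrays from their group means correlated at -0.0135, 0.0268 and 0.114. Those of differently numbered arrays correlated at -0.103 to 0.0737. With 3 arrays per group, these values cannot decide whether the replicate numbers pair the arrays. With the replicate block, 3629 probe sets were higher and 3589 lower, 383 list members were called, line differences were 63 and 25, and the comparison with BMP2 gave 1521 and 2023. Among these genes the block ended no call.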

Other observations

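Several muscle genes outside the lists, chosen after their values were seen, had large differences between d0 and d3, given here as means of 3 arrays. The myosin chaperone gene Unc45b went from 176.5 to 3946, the small heat shock protein gene Hspb7 from 84.4 to 2182 and the ubiquitin ligase gene Trim63, known from muscle wasting, from 237 to 3826. Klhl40, which stabilises thin filament proteins, went from 177 to 1691. The splicing regulator Rbfox1 went from 43.1 to 584, while Mbnl3, a muscleblind protein that holds back differentiation, went from 1345 to 398.

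The water channel gene Aqp1 went from 4291 at d0 to 266 at d3 and was at 4366 at d3 with BMP2. Selp went from 442 to 19.4, with 537 in the cultures with BMP2, and Dynap from 5982 to 418, with 11897. Tubb3 went from 2524 to 230.2 and was at 331 with BMP2. E2f2, a G1 regulator that was not called between d0 and d3 at means of 557 and 983, had a mean of 7.29 with BMP2.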
